A study of Homo sapiens with 6 samples.

Results

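The metallothionein and zinc response genes of A375 cells, an established human melanoma line, were examined as a group of 10 genes out of the 28395 in the deposited RNA-seq table. The members were taken by symbol and were the metallothioneins MT2A, MT1X, MT1F, MT1E, MT1G and MT1M, the transcription factor MTF1, the zinc exporter SLC30A1 and the zinc importers SLC39A10 and SLC39A14. All 10 symbols were found. The cells were labelled wild type. They were cultured for 6 h with 0.01% olive oil (OLO) in 3 libraries or with 0.01% ozonated olive oil (OZO) in 3 libraries. The labels do not say whether the 3 libraries of a group came from separate cultures. The study's figure legend for its A375 transcriptome data gives 3 independent experiments. The expression value used here is the authors' mean log2 CPM (counts scaled to the size of the library) over all 6 libraries, which pools OLO and OZO. The columns of the authors' own OZO against OLO comparison were not used, and libraries were not examined one by one, so the levels below carry no spread between libraries, no difference between OZO and OLO is given and no test was run.

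Metallothioneins are small cysteine-rich proteins that bind zinc and copper through their thiol groups. Free zinc activates MTF1, a zinc finger factor that binds metal response elements in the promoters of metallothionein genes and of SLC30A1. Most SLC30 proteins move zinc out of the cytosol and most SLC39 proteins move it in, and metallothioneins are also known to scavenge oxidants.

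The coding sequences show how alike the metallothioneins are, which bears on how reads can be assigned to them. They were read from the canonical transcripts of GENCODE 44 on hg38, stop codon included. In MT2A (chromosome 16, 56608584 to 56609497, plus strand) the capitals mark the cysteine codons, of which there were 20 in 61 codons before the stop. In the other lines the capitals mark bases that differ from MT2A at the same position.
MT2A: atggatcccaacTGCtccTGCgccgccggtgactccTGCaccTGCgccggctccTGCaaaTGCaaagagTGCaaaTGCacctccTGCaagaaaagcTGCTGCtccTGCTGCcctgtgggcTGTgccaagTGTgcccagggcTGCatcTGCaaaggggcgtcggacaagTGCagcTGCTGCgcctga
MT1X: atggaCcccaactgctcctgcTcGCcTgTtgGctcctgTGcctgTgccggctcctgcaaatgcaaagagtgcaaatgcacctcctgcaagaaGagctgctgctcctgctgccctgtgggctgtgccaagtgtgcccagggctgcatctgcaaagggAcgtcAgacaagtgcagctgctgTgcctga
MT1F: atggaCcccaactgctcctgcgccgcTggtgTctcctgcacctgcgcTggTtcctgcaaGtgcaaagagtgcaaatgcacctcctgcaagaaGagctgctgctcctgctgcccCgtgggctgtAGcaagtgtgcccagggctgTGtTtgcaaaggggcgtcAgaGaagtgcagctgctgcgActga
MT1M: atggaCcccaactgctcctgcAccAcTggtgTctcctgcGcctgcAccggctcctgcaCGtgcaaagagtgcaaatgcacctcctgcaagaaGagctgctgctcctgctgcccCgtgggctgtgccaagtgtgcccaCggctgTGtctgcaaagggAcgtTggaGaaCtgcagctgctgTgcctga
These 4 genes each had a coding length of 186 bases, and over their 6 pairs 88.7% to 92.5% of the bases were the same. MT1X (chromosome 16, 56682470 to 56684196) was closest to MT2A, with 14 differing bases. MT1F differed from MT2A at 16 bases and MT1M at 19. MT1G had 62 codons with 20 for cysteine, and the canonical model of MT1E was longer, with 127 codons and 14 for cysteine, so neither was compared base by base. That MT1E model has 2 exons and starts at 56625475, ahead of the RefSeq gene start at 56625781. The MT1E codon numbers hold for that model only, and its other models were not read for codons. The canonical transcripts of MT2A, MT1X, MT1F, MT1G and MT1M had 3 exons each and were 398 to 425 bases long. Runs of 50 bases found in a transcript of another gene made up 11.1% of all such runs in MT2A, 18.0% in MT1X, 19.9% in MT1G, 14.6% in MT1M, 10.3% in MT1E and 6.12% in MT1F. With runs of 100 or 150 bases, 0 were shared in any of the 10 members. These counts cover exact matches between each member's canonical transcript and annotated GENCODE transcripts. Gene models overlapping the member's own locus were left out, and the rest of the genome was not searched. The reads were 150 bases long on each end by the study's methods.

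The promoters of MT2A, MT1X and SLC30A1 are shown because their genes had reads. They also held the largest numbers of metal response element cores among the 5 members with a matched promoter. They come from RefSeq on GRCh38.p14 and run from 250 bases before to 50 bases after the start site, 5′ to 3′ on the gene's strand. Capitals mark matches, on either strand, to the core written as TGCACNC or TGCGCNC, where N is any base.
MT2A, chr16:56608334-56608633, plus strand: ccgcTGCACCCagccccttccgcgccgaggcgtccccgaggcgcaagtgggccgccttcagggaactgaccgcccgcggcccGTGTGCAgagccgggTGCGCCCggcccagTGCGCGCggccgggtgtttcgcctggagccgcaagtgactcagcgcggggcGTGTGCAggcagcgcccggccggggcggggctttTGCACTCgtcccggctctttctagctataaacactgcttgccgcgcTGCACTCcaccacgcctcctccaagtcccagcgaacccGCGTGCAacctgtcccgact
MT1X, chr16:56682220-56682519, plus strand: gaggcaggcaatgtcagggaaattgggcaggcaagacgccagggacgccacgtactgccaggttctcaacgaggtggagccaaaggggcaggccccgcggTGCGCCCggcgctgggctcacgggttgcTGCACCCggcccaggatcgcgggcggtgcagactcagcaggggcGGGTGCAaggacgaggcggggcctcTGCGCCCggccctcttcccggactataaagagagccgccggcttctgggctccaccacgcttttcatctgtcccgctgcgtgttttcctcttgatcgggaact
SLC30A1, chr1:211579112-211579411, minus strand: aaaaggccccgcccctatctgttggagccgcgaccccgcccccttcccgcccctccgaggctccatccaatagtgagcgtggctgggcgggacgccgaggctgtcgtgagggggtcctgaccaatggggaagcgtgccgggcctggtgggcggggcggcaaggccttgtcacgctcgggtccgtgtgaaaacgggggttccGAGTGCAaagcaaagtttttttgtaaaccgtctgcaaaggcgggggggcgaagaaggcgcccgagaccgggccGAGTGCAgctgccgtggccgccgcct
The MT2A promoter held 8 cores, the MT1X promoter held 4 and the SLC30A1 promoter held 2. At least 1 core was present in 29.6% of all 35116 promoters of the same length, at least 3 in 2.30% and at least 5 in 0.162%. RefSeq promoters were matched for 5 of the 10 members. Of the other matched members, the MTF1 promoter held 0 cores, and of the promoters of SLC39A10 the first held 0 and the second held 1. Both SLC39A10 promoters lie downstream of the gene start at 195613029, and the promoter at that start was not scanned. MT1E, MT1F, MT1G, MT1M and SLC39A14 were not matched. A match is a run of letters and not a site shown to be bound.

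**Figure D1:**
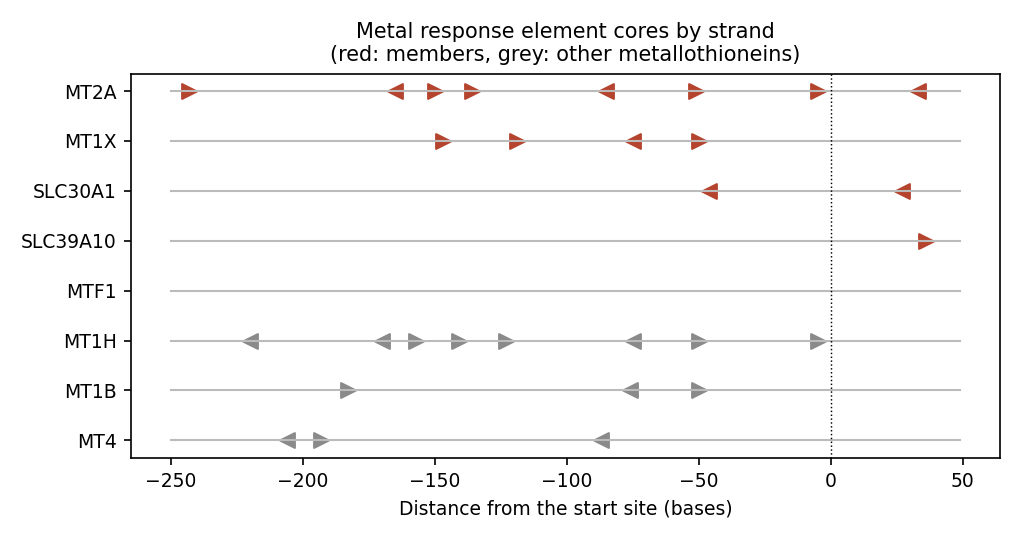
Positions of metal response element cores in 300-base promoters, in bases from the start site (dotted line), with triangles pointing right for the gene's strand and left for the other strand. MT2A and MT1H hold 8 cores each, MT1X 4, MT1B and MT4 3 each, SLC30A1 2, the second promoter of SLC39A10 1 and MTF1 0.

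MT2A and MT1X each had a core on the gene's strand about the same distance from the start, at 54 to 48 bases before the start in MT2A and 53 to 47 before it in MT1X. MT1H and MT1B, metallothioneins that are not members, also had a core at 53 to 47 bases before the start. Promoters were matched for 22 of the 32 other listed genes. Among the other metallothioneins only MT1H, MT1B and MT4 were matched, so the rest were not scanned for cores. MT1H held 8 cores, the same number as MT2A, and MT1B and MT4 held 3 each. MT1H, MT1B and MT4 were listed at 0 in the deposited table.

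Depth was recovered from the lowest values, since voom adds 0.5 to every count. The lowest mean log2 CPM, −5.20, is the value of a gene with no counted read in any library and was held by 7012 genes (24.7%), and from it the library size, as a geometric mean, came to 18409903 counted reads. How deep any one library was is unknown. A mean read number given below is the geometric mean over the 6 libraries. Its intervals are approximate 95% Poisson intervals that take 6 times this mean as the count, and they cover counting error only. The summed reads themselves cannot be read from such a mean. Genes at the lowest value are given below as listed at 0, with no limit on their level, because they include SLC39A7, a zinc transporter of the endoplasmic reticulum that most cell types express. Levels are compared between genes as CPM per kb of canonical transcript. In such bulk values a lower share of expressing cells and less RNA per cell cannot be told apart.

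Of the 10 members, 7 had a counted read and 6 averaged 10 or more reads. MT2A had the highest level per length of the members, at 320 CPM per kb, from a mean log2 CPM of 7.01 and a mean of 2366 reads (interval 2327 to 2405). This was at percentile 99.4 of the 25497 genes with a length. MT1X had 41.0 CPM per kb, from a mean log2 CPM of 4.05 and a mean of 305 reads (interval 291 to 320), at percentile 93.3. Among genes averaging 10 or more reads MT2A was at percentile 98.9 and MT1X at 87.1. Without division by length they were at 93.5 and 73.0 of all genes in the table. MT2A was 7.81 times as abundant per length as MT1X, and 14.8 times with the longest transcript of each gene or 14.6 times with the union of its exons. For both genes the union of exons covers the whole gene, introns of the canonical transcript included. The longest transcript does so for MT1X and nearly so for MT2A.

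MT1F (chromosome 16, 56657959 to 56659303) was the remaining metallothionein member with a read. Its mean log2 CPM of −4.55 corresponds to a product of 15 over the libraries, which allows only 3 reads in all, as 1 and 2 in a pair of libraries, or 7 reads in 1 library. Which of these holds, and in which group, cannot be read from the mean. MT1E, MT1G and MT1M were listed at 0.

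**Figure D2:**
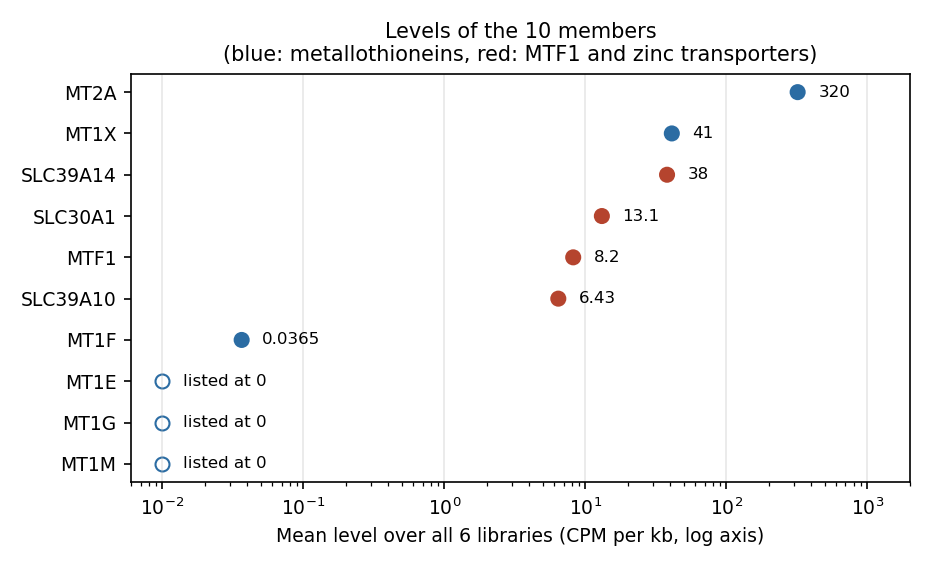
Mean level of each member over all 6 libraries in CPM per kb of canonical transcript, on a log axis; filled points are levels and open points, set at the left, are genes listed at 0. MT2A lies at 320, MT1X and SLC39A14 at 41.0 and 38.0, SLC30A1, MTF1 and SLC39A10 between 13.1 and 6.43, and MT1F at 0.0365.

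Of 11 further metallothionein genes and pseudogenes, 10 were in the table, and 9 of these were listed at 0: MT1A, MT1B, MT1H, MT3, MT4, MT1L, MT1DP, MT1JP and MT1IP. MT1HL1, which lies outside the cluster, had 1 read in 1 library. The gene MT1CP was not found in the table. On chromosome 16 the cluster thus held 15 listed metallothionein genes, of which 2 averaged 10 or more reads, 1 had fewer and 12 were listed at 0. The member genes span 75.6 kb there, from MT2A to MT1X. The genes listed at 0 lay between and beyond these, since MT4 and MT3 start at −43.5 and −19.1 kb from the start of MT2A.

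**Figure D3:**
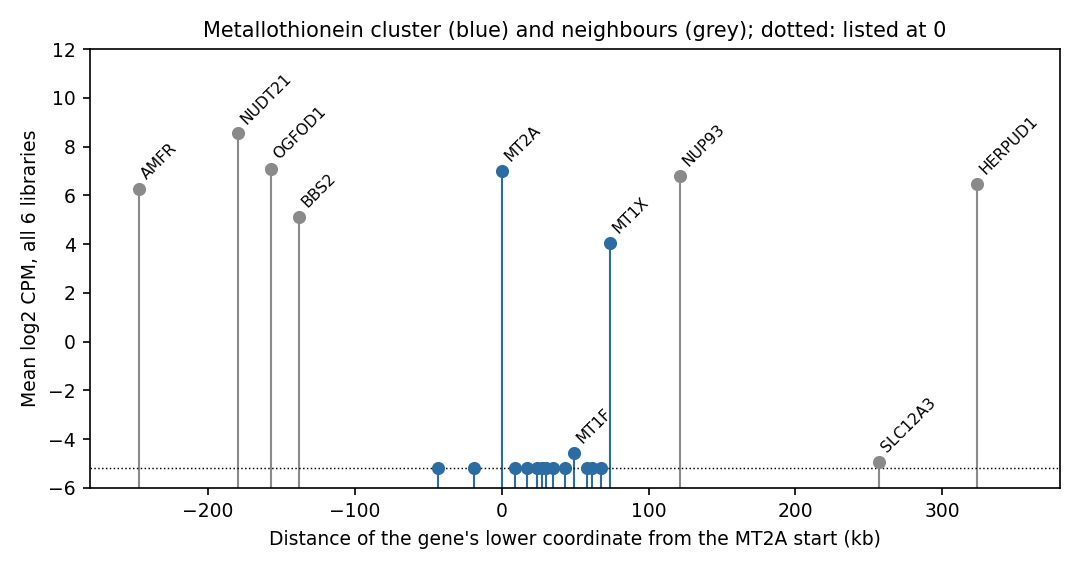
Mean log2 CPM over all 6 libraries (vertical axis) of the metallothionein genes in blue and of their protein-coding neighbours in grey, by distance in kb from the start of MT2A (horizontal axis). MT2A and MT1X stand at 7.01 and 4.05, MT1F at −4.55, and the other metallothioneins sit on the dotted line at −5.20, while the neighbours NUDT21, OGFOD1, BBS2 and NUP93 lie between 5.11 and 8.54 and SLC12A3 lies at −4.94.

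Neighbouring genes spanned a wide range of levels. NUDT21, a subunit of the pre-mRNA 3′ end processing complex, had 84.9 CPM per kb, and NUP93, a nuclear pore protein, had 13.5, whereas SLC12A3, the thiazide-sensitive sodium chloride cotransporter of the kidney, had a mean log2 CPM of −4.94, close to the lowest value. These 3 were chosen after their values were seen. Within 1 Mb of the cluster, 24 of 29 other protein-coding genes had a read and 5 (17.2%) were listed at 0, against 13.02% of all 19162 protein-coding genes. Of the 29, 19 averaged 10 or more reads, against 12430 of the 19162.

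MTF1 (chromosome 1, 37809574 to 37859592), the metal-sensing factor, had 8.20 CPM per kb, from a mean of 1198 reads (interval 1170 to 1226), at percentile 75.2. MT2A was 39.1 times as abundant per length as MTF1. The ratio was 17.4 with the longest transcripts and 17.3 with the union of exons, and it was 1.98 without division by length. SLC30A1 (chromosome 1, 211571568 to 211579161), which exports zinc across the plasma membrane, had 13.1 CPM per kb and a mean of 1420 reads (interval 1390 to 1451), at percentile 81.1. SLC30A1 was 1.597 times as abundant per length as MTF1, and 1.19 times without division by length.

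The importers differed from each other more than that. SLC39A14 (chromosome 8, 22367278 to 22434129), a plasma membrane transporter of zinc that also carries iron and manganese, had 38.0 CPM per kb and a mean of 3259 reads (interval 3213 to 3305), at percentile 92.6. SLC39A10 (chromosome 2, 195613029 to 195737700), a plasma membrane importer, had 6.43 CPM per kb and a mean of 618 reads (interval 598 to 638), at percentile 72.3. SLC39A14 was 5.91 times as abundant per length as SLC39A10 and 2.90 times as abundant as SLC30A1. With the union of exons these ratios were 5.28 and 1.96, and without division by length they were 5.27 and 2.29.

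**Figure D4:**
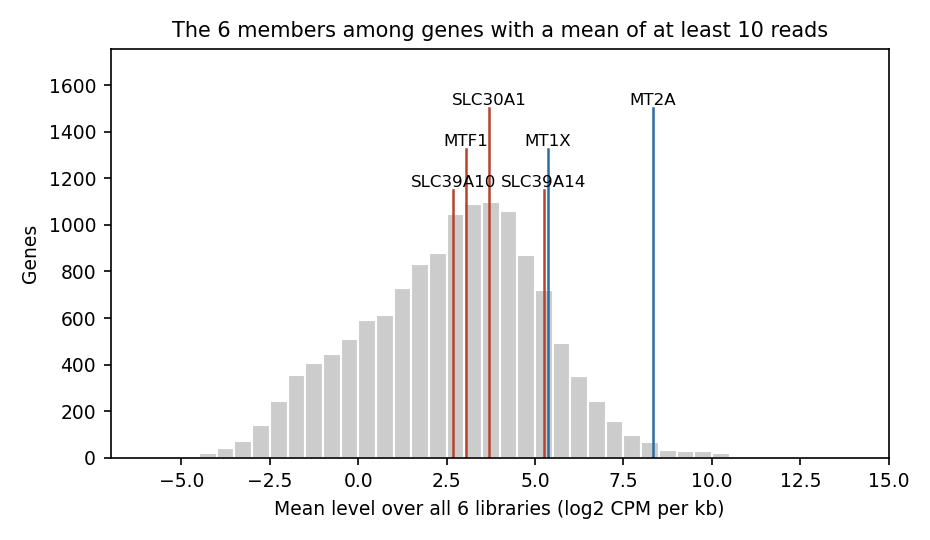
Number of genes (vertical axis) by mean level over all 6 libraries in log2 CPM per kb (horizontal axis), for the 13313 genes with a length and 10 or more reads on average; vertical lines mark the 6 members among them. MT2A lies in the upper tail, at percentile 98.9 of these genes, MT1X and SLC39A14 at 87.1 and 85.9, and SLC39A10 near the middle at 47.0.

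The order of levels per length was MT2A, MT1X, SLC39A14, SLC30A1, MTF1, SLC39A10 and MT1F, followed by the 3 genes listed at 0. MT1X and SLC39A14 were nearest to each other, at a ratio of 1.08. Their order rests on the transcript length. With the longest transcript of each gene MT1X had 9.60 and SLC39A14 38.0 CPM per kb. MT1X was then also below SLC30A1 at 13.1. That longest MT1X transcript covers the whole gene, introns of the canonical transcript included. MT2A was 8.44 times as abundant per length as SLC39A14, but without division by length SLC39A14 had more reads, and the ratio was 0.726. Whether any pair of neighbours differed beyond the spread between libraries was not tested.

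For genes averaging 10 or more reads, the median level was 7.37 CPM per kb. MT2A, MT1X, SLC39A14, SLC30A1 and MTF1 were above it and SLC39A10 was below.

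The 3 zinc transporters were then placed among all 24 genes of the SLC30 and SLC39 families in the table. Of these, 22 had a read and 17 averaged 10 or more. SLC39A14 was in position 3 of the 24, at 38.0 CPM per kb, behind SLC39A6 at 60.3 and SLC39A1 at 56.6. These positions rest on the canonical lengths. SLC39A14 had more reads than SLC39A1, at means of 3259 and 2124. With the union of exons SLC39A14 had 25.6 CPM per kb, and the genes outside the members were not scaled that way. SLC39A9, at 22.9, was the next importer. SLC30A5, at 36.3, and SLC30A9, at 21.4, were the highest of the SLC30 genes, ahead of SLC30A7 at 16.8.

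SLC30A1 was in position 5 of the 10 SLC30 genes, and those ranked above it, SLC30A5, SLC30A9, SLC30A7 and SLC30A6, lay between 15.6 and 36.3 CPM per kb. SLC39A10 was in position 6 of the 14 SLC39 genes, close to SLC39A3 at 6.14 and SLC39A13 at 5.48.

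**Figure D5:**
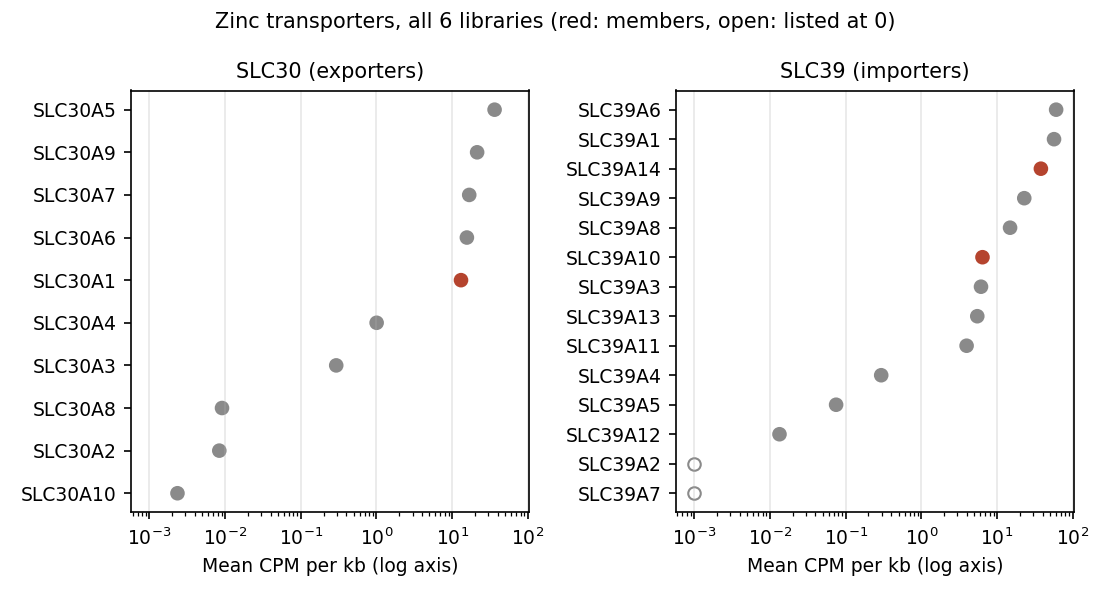
Mean level over all 6 libraries in CPM per kb, on a log axis, of the 10 SLC30 and 14 SLC39 genes; red points are the 3 members and open points, set at the left, are listed at 0. SLC39A14 lies at 38.0, behind SLC39A6 and SLC39A1, SLC30A1 at 13.1 and SLC39A10 at 6.43.

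SLC39A2 and SLC39A7 were listed at 0. Within 1 Mb of SLC39A7 on chromosome 6, 18 of 46 other protein-coding genes (39.1%) were also listed at 0, against 13.02% of all protein-coding genes and above that around the metallothionein cluster. Only 5 of these 46 averaged 10 or more reads, against 12430 of all 19162 and 19 of the 29 around the metallothionein cluster. The cause was not tested.

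The melanoma label was checked against markers. SOX10 and MITF, factors of the melanocyte lineage, had 17.3 and 5.64 CPM per kb, whereas the pigment genes MLANA, TYRP1, PMEL and DCT had 0.854 or less and TYR was listed at 0. AXL, a receptor kinase of undifferentiated melanoma, had 56.6 CPM per kb, NGFR 11.1, WNT5A 6.36 and SOX9 1.17. The immune markers PTPRC and CD3E and the endothelial marker CDH5 were at 0.0109 CPM per kb or less, PECAM1 was at 0.155, the fibroblast markers COL1A1 and PDGFRB were at 0.205 and 0.969, and of the keratinocyte markers KRT14 had 2.57, KRT5 0.0378 and KRT1 was listed at 0.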

How the data were processed

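RNA-seq libraries of A375 cells were made by the authors with a directional kit and sequenced in paired-end mode. The authors aligned reads to hg38 with HISAT2 2.1.0 by the study's methods. The methods name StringTie 1.3.4d for assembling transcripts and estimating their expression. They name featureCounts 2.1.1 and limma-voom 3.58.1 for differential expression. The submitters' processing notes also list these tools. Counting options, filters and normalization factors are not given in the sources used here. The one deposited table holds, per NCBI gene, a log2 value that is the authors' mean log2 CPM over all 6 libraries, and whole-number steps in it fit the 0.5 that limma's voom adds to each count. Its other 5 value columns hold the authors' own comparison (fold change, t, p-value, adjusted p-value and log odds) and were not used, so no test between OZO and OLO was made.

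Subtracting the lowest value from a mean and multiplying by 6 gives the log2 of a product of odd numbers (2 times the reads, plus 1). For all 5057 genes with products above 1 and under 10000, it fell within 0.001 of an odd whole number. This step was run on data simulated with the same formula. That checks only the arithmetic and cannot show whether the deposited values follow the formula. Reads, CPM and CPM per kb followed from this step, with 0.5 removed, in Python 3.11.15 and pandas 2.3.3. Lengths came from GENCODE 44 for 25497 genes matched by Ensembl identifier, gene coordinates and promoters from RefSeq GRCh38.p14 by Gene number and symbol, and coordinates count from 1. The members and gene lists were chosen with earlier results of these data known. All members are named, and of each other list the 3 highest genes and those listed at 0. NUDT21, NUP93, SLC12A3, SLC30A6, SLC39A3 and SLC39A13, outside that rule, were chosen after their values were seen. Transcript lengths, the 0.5, the genes ranked, the read minimum, the promoter window and the motif were varied.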

Additional observations from a re-analysis of the deposited data

How the results depend on the processing

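No paired analysis was possible because the mean pools all libraries. For the same reason the alternatives that need values per library (another tool or normalization, filters, pseudocounts, leaving out each replicate) were not run. The level of MT2A relative to SLC39A14, 8.44, became 3.75 with the longest transcript and 5.49 with the union of exons. The longest transcript changed the length of MT2A but not of SLC39A14, and the union of exons changed both. For MT2A both longer lengths take in introns of the canonical transcript. The ratio reversed to 0.726 with no division by length, an alternative that was added once the data had been seen. Counting members at or above the 90th percentile gave 3, which became 1 when genes averaging under 10 reads were left out. Of the listed metallothioneins, 4 had any read, and 2 did at a minimum mean of 1 or of 10 reads. The number of members with at least 3 metal response element cores, 2, became 1 with TGCACNC alone and 0 with TGCGCNC alone. The other 8 of 16 such values stayed within their interval or within 1.5 times. Of 21 levels of single members, 7 moved beyond their counting interval, all with a changed transcript length. That count depends on read number as well as on the size of a change. MT1F went from 0.0365 to 0.00837 CPM per kb with the union of exons and stayed within its wide interval. SLC39A10 went from 6.43 to 6.18 with the longest transcript and counted as moved. The depth of single libraries is unknown, and no limit is set on genes listed at 0.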
